A study of Mus musculus with 2 samples.

Results

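Fatty acid oxidation was examined through 39 genes that encode the proteins of fatty acid uptake, activation, carnitine transport, mitochondrial and peroxisomal β-oxidation, ketone body formation and acyl-CoA hydrolysis. The genes were chosen by name from the 30153 gene names of an Agilent mouse array, and all 39 were on it, with 50 probes between them. RNA of 2 samples was compared. The first was from mature hepatocytes (MHs), prepared from healthy livers by collagenase digestion, slow centrifugation and a Percoll gradient. The second was from Sox9+EpCAM- biphenotypic hepatocytes, which were sorted by FACS as GFP+EpCAM- cells after DDC feeding of Sox9-EGFP mice, DDC being a compound that injures the bile ducts. The study's methods name Sox9-EGFP mice as the source of healthy livers too. EGFP in these mice comes from a transgene under Sox9 control, so the sort takes cells by reporter and by EpCAM, not by a hepatocyte protein. The age of the mice, their number and the length of DDC feeding for the array samples are not given in the sources used here.

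In the mitochondrial pathway, a fatty acid is bound and carried in the cytoplasm, joined to coenzyme A, moved across the inner membrane as a carnitine ester and shortened by rounds of dehydrogenation, hydration, a second dehydrogenation and thiolysis. Electrons of the first step pass through the electron transfer flavoprotein to ubiquinone, and the acetyl-CoA feeds the TCA cycle or, in hepatocytes, ketone bodies. Peroxisomes shorten very long and branched acyl chains with their own enzymes, and in liver many genes of both organelles are targets of the nuclear receptor PPARα.

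There was 1 array for each group, which leaves the differences without an SD and without a test. With so few arrays the precision is limited, and sizes are given as a description of these 2 RNAs. Both arrays are of 1 colour. Of 43020 spots, 27523 (MHs) and 32158 (Sox9+EpCAM- cells) were well above background, and 0 were saturated. A level is the log2 intensity relative to the 75th percentile of the array, which was 741 for MHs and 1110 for Sox9+EpCAM- cells. An equal raw intensity on both arrays is therefore a lower level in Sox9+EpCAM- cells. Differences are Sox9+EpCAM- minus MH on the log2 scale, and the brightest probe stands for a gene. Male is the labelled sex of both samples, but of 2 Xist probes, 2 were above background in MHs and 0 in Sox9+EpCAM- cells, while of 5 Y-linked probes 0 and 4 were. Diet, isolation method and a possible difference in sex, or whatever else lies behind this mismatch, cannot be told apart in any value that follows.

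Sequences of 3 kinds accompany the values. The first is the end of the probes for Cpt1b and Decr1, the members whose probes gave opposite differences of the largest size. Each line gives the last 30 bases of the probe, and capitals mark the polyadenylation signal AATAAA, where the stretch holds one.
Cpt1b, chr15:89247106-89247165 (mm9, minus strand): attggagcagcaggggaattttgatttttt
Cpt1b, chr15:89246836-89246895 (mm9, minus strand): acttggAATAAAttcttactttagaacctt
Decr1, chr4:15846075-15846134 (mm9, minus strand): cttgggggttAATAAAttgtttgcttgatg
Decr1, chr4:15844647-15844706 (mm9, minus strand): agagtttctgtttgttatgtgtaagacctg

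The second set is from RefSeq promoter windows of GRCm38.p6, which run from 250 bases before to 50 bases after each annotated start. They are shown because PPARα binds, with its partner RXR, 2 copies of the motif AGGTCA with 1 base between them. That arrangement was searched on both strands with up to 2 mismatches, and 33 of the 39 genes have such a window. It was found in 5 of 35 member windows (14.3%) and in 3.86% of all 32851 windows. The exact motif alone, which overlaps the repeat, was in 8 member windows (22.9%) and in 16.3% of all. Capitals mark the repeat, read on the strand that matches.
Fabp1, chr6:71199804-71199832 (minus strand): tcagatatAGGCCATAGGTCAgtgattgt
Echs1, chr7:140116484-140116512 (minus strand): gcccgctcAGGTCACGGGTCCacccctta
Etfa, chr9:55512300-55512328 (plus strand): ttgggagtAGGGCAAAGGTAAgggtgtgc
Slc25a20, chr9:108662134-108662162 (plus strand): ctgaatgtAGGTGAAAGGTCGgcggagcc
Acot4, chr12:84038358-84038386 (minus strand): gcacagacCGGCCAAAGGTCAtgcttcgg
Fabp1 is the match with 1 mismatch, 54 bases before the start of the gene, and the other 4 have 2 mismatches. A match of letters is a description and no evidence of binding. The 5 genes had log2 differences of -0.74 for Fabp1, -1.27 for Echs1, -0.90 for Etfa, -0.20 for Slc25a20 and -1.79 for Acot4, all below 0, as were 27 of the 39 genes, and Slc25a20 turned positive under quantile normalization and scaling to Gapdh.

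The third is the stretch between the starts of Hadha and Hadhb, the genes of the α and β subunits of the mitochondrial trifunctional protein. They lie head to head on chromosome 5, share this stretch as their promoter and had nearly the same difference. It is 272 bases long with 60.3% G and C, where the median promoter window has 52.4%.
Hadha and Hadhb, chr5:30154981-30155252 (GRCm38.p6, plus strand): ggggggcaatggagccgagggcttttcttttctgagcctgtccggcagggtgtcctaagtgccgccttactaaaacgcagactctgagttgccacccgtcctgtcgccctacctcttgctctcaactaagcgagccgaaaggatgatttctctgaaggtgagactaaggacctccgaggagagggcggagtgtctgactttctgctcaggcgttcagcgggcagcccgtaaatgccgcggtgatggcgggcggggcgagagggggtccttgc

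Over the whole set, the genes of fatty acid oxidation differed by 2-fold or more about as often as genes of the array did, and none was lower by 4-fold. All 50 probes were well above background on both arrays. The median log2 difference was -0.46, against -0.12 for all 21877 genes with a difference, and the range was -1.79 to 3.20. At least 4-fold higher were 3 genes (7.69%), Acot2, Acot1 and Etfdh, while 5.98% of all genes were. At least 4-fold lower were 0 members and 5.96% of all genes. At least 2-fold lower were 7 members, which is 17.9% and the same share as the 17.9% of all genes. At least 2-fold higher were 5 members (12.8%), against 15.2% of all. Within 2-fold were 27 members (69.2%), where the background is 66.9%. These shares are close to the background and are no result about the members. Below 0 were 27 members and 12 were above, with 55.3% of all genes below 0, but under quantile normalization 20 members were below 0. By size, 16 members lay within 1.5-fold, 10 were between 1.5- and 2-fold lower and 1 between 1.5- and 2-fold higher.

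**Figure D1:**
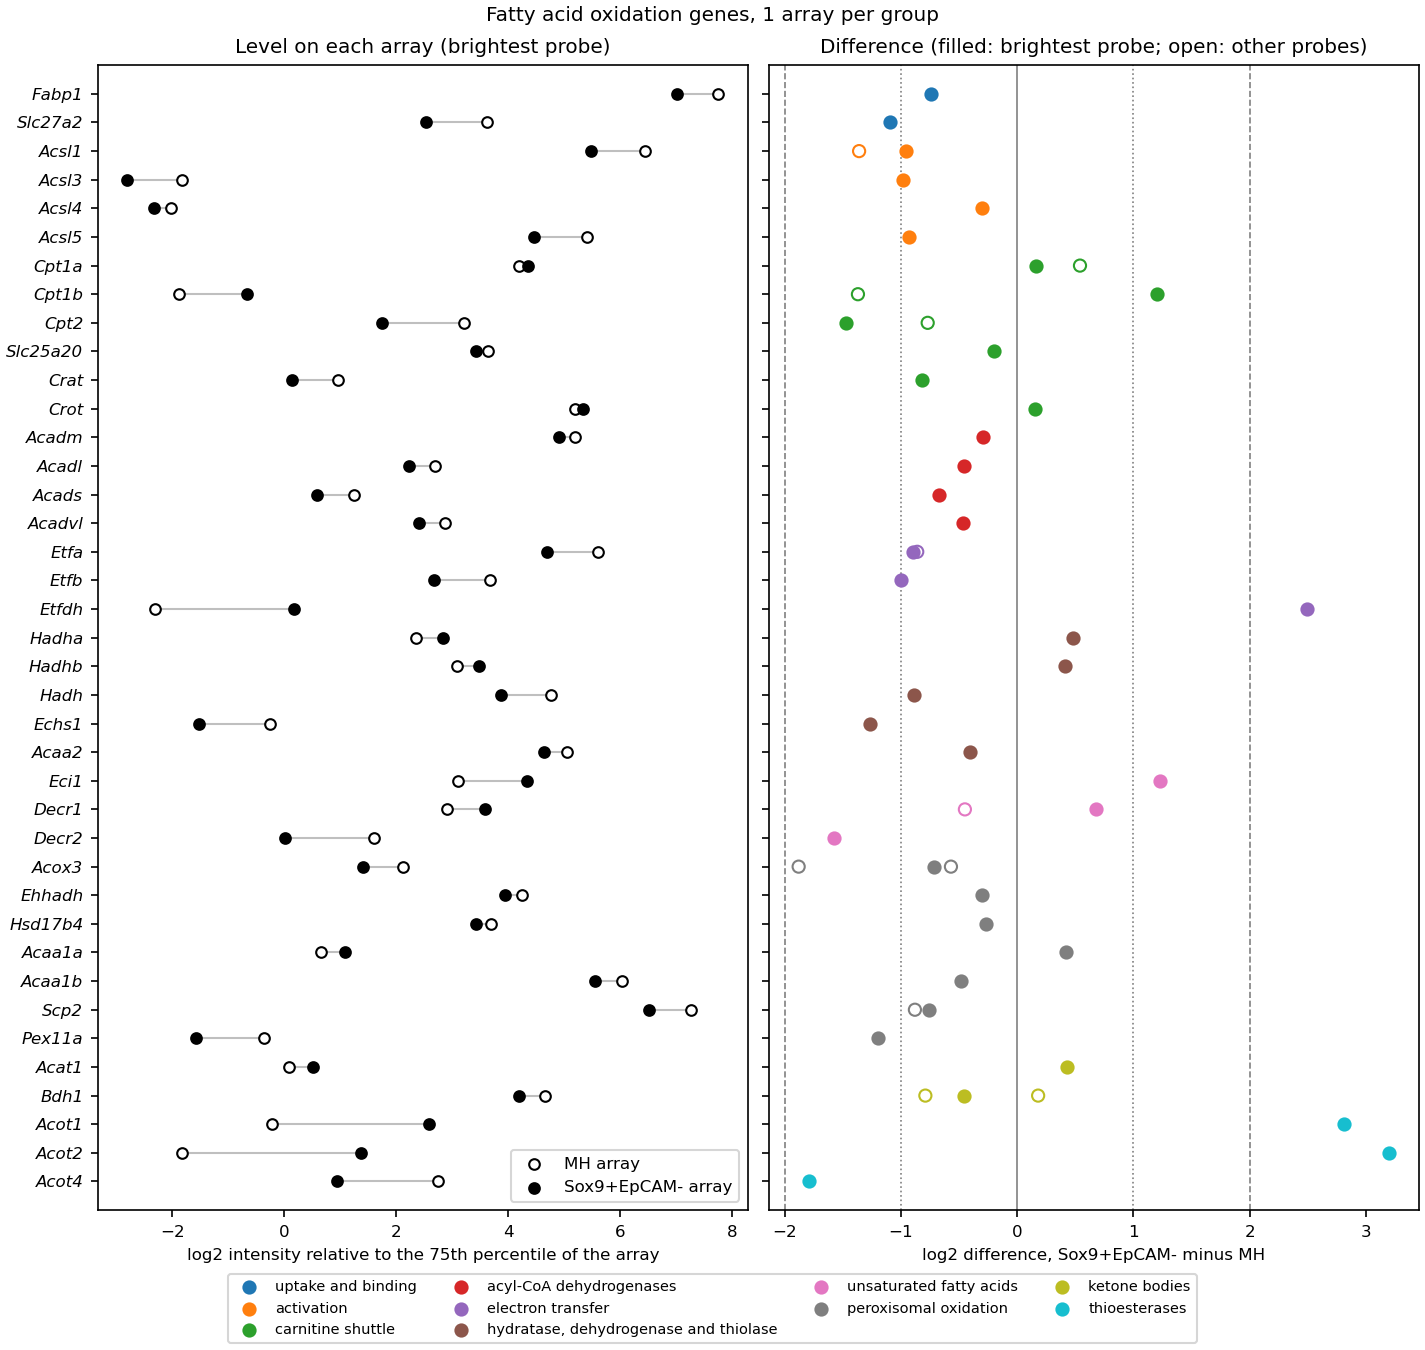
The left panel plots the level of each gene (log2 intensity of the brightest probe relative to the 75th percentile of the array) on the MH array (open) and the Sox9+EpCAM- array (filled), and the right panel the log2 difference of every probe, coloured by role, with dotted lines at 2-fold and dashed lines at 4-fold. Acot2, Acot1 and Etfdh stand to the right of the upper 4-fold line, no filled point lies to the left of the lower 4-fold line, and 27 of 39 filled points lie between the dotted lines.

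Of the 6 genes of uptake and activation, Slc27a2 was at least 2-fold lower and the others were within 2-fold. Fabp1, the fatty acid binding protein of the hepatocyte cytoplasm, had intensities of 160000 in MHs and 144000 in Sox9+EpCAM- cells, and its log2 difference was -0.74. Slc27a2, a transporter that also activates very long chains, had 9110 and 6390, a difference of -1.09. The 4 long-chain acyl-CoA synthetases were all below 0, with a median of -0.95. Acsl1, the main synthetase of liver, had 64700 and 49700 with its brightest probe, a difference of -0.96, and -1.36 with its other probe. Acsl5 had -0.93. Acsl3, which acts at lipid droplets, was dim in both RNAs, with 210 and 159, and had -0.98. Acsl4, which prefers arachidonic acid, had 182 and 221, a difference of -0.30. Acsl3 and Acsl1 lay just short of the 2-fold line, and Etfb, 2.01-fold lower, just past it.

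The carnitine shuttle was mixed, with a median of -0.03 over 6 genes. Cpt1a, the carnitine palmitoyltransferase of the outer membrane that limits the rate of β-oxidation in liver, was within 1.5-fold by both of its probes. Its brightest probe had intensities of 13600 and 22800, a difference of 0.16. Its other probe is printed 10 times on each array. It ranged from 6040 to 6630 on the MH array and from 13200 to 14300 on the Sox9+EpCAM- array, a difference of 0.54 after scaling. The SD of these spots was 0.048 and 0.038 on the log2 scale, which covers the spots of an array only. Cpt2, the matching enzyme of the inner membrane, was lower by both of its probes, with 6900 and 3740 (-1.47) for the brighter and 2210 and 1940 (-0.77) for the other. Slc25a20, the carrier that exchanges acylcarnitine for carnitine between these enzymes, had 9230 and 12000, a difference of -0.20. Crot, the carnitine octanoyltransferase of peroxisomes, had 27000 and 44900, a difference of 0.15. Crat, the acetyltransferase, had 1440 and 1220, a difference of -0.82.

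Cpt1b, the form of muscle, has no settled direction. Its probe at chr15:89247106-89247165 had 202 and 696, a difference of 1.20, and its probe at chr15:89246836-89246895 had 170 and 98.6, a difference of -1.37. The gene runs on the minus strand, so the second probe lies downstream of the first, and it is the one whose printed end holds AATAAA. Both intensities are low in MHs. The signal AATAAA is in the last 30 bases of 10.6% of the 39429 probes searched.

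The 4 acyl-CoA dehydrogenases of the first oxidation step, which differ in the chain length they accept, lay within a narrow range of -0.67 to -0.29. Acadvl, for very long chains, had 5400 and 5840, a difference of -0.47. Acadl, for long chains, had -0.46. Acadm, for medium chains, had 27100 and 33200, a difference of -0.29. Acads, for short chains, had 1760 and 1660, a difference of -0.67. Their median, -0.46, is that of the whole set.

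The proteins that take electrons from these dehydrogenases differed among themselves. Etfa and Etfb, the subunits of the electron transfer flavoprotein, were lower: Etfa had 36000 and 28800 (-0.90) with one probe and 17500 and 14400 (-0.86) with the other, and Etfb had 9510 and 7100, 2.01-fold lower after scaling. Etfdh, the oxidoreductase that passes the electrons on to ubiquinone, had 149 in MHs and 1250 in Sox9+EpCAM- cells, 5.6-fold higher, a difference of 2.49. Its single probe lies at chr3:79407806-79407865 and has no 20 bases in common with a probe of another name. Etfdh is thus the only member outside the thioesterases that was at least 4-fold different, and its direction is opposite to that of both subunits that feed it.

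In the later steps of the mitochondrial spiral, Echs1 was at least 2-fold lower, and both subunits of the trifunctional protein were within 1.5-fold. Hadha had 3790 and 7920, a difference of 0.48, and Hadhb, whose promoter stretch is printed above, had 6250 and 12400, a difference of 0.41. The probe of Hadhb is the 1 member probe that shares 20 bases with a probe of another name, as 7.19% of all probes do. Echs1, the hydratase for short chains, had 621 and 386, a difference of -1.27. Hadh, the dehydrogenase for medium and short chains, had 20100 and 16300, a difference of -0.89. Acaa2, the thiolase for these chains, is printed 10 times, with 22700 to 26800 on the MH array and 26300 to 29300 on the Sox9+EpCAM- array. These ranges are of raw intensities. After scaling its mean level was 5.05 in MHs and 4.64 in Sox9+EpCAM- cells, with spot SDs of 0.066 and 0.048. Its difference was -0.41, within 1.5-fold, and 0.06 under quantile normalization.

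The auxiliary enzymes for unsaturated chains also split. Eci1, the isomerase that moves double bonds in mitochondria, had 6400 and 22500, a difference of 1.23, above that of any enzyme of the spiral itself. Its probe maps over 1398 bases of the genome and so crosses a splice junction. Decr1, the dienoyl-CoA reductase of mitochondria, had 5570 and 13400 with the brighter probe, a difference of 0.68, and 900 and 985 with the other, a difference of -0.45. The brighter probe ends near an AATAAA, printed above, and the other lies downstream of it. Decr2, the reductase of peroxisomes, had 2240 and 1120, a difference of -1.58.

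Of the 7 genes of peroxisomal oxidation, 1 (14.3%) was at least 2-fold lower, Pex11a, where 17.9% of all genes were. The median was -0.48, and 6 were below 0, as were 55.3% of all genes. Acox3, an oxidase of the first step, was below 0 by all 3 probes, with -0.72 for the brightest, -0.57 for the next and -1.88 for a dim one with 91.6 and 37.2. Ehhadh and Hsd17b4, the bifunctional enzymes of the middle steps, had -0.30 and -0.27, and 0.13 each under quantile normalization. The thiolases Acaa1b and Acaa1a were both within 1.5-fold. Acaa1b had 48300 and 52000, a difference of -0.48 that was 0.01 under quantile normalization, and Acaa1a had 1170 and 2350, a difference of 0.42. Scp2, which encodes a thiolase and sterol carrier, had -0.76 and -0.88 by its probes. Pex11a, a membrane protein of peroxisome division, had 540 to 620 over 8 spots on the MH array and 352 to 398 on the Sox9+EpCAM- array. The SD of these spots was 0.067 and 0.058 on the log2 scale, which covers the spots of an array only. The difference was -1.20.

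The ketone body genes gave no common direction. Acat1, the mitochondrial thiolase that makes acetoacetyl-CoA, had 787 and 1590, a difference of 0.43. Bdh1, which reduces acetoacetate to β-hydroxybutyrate, had 18700 and 20400 with the brightest probe, a difference of -0.46, and 0.18 and -0.79 with the others.

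The largest differences of the set were in the acyl-CoA thioesterases, which release free fatty acids from coenzyme A. Acot2, the mitochondrial enzyme, had an intensity of 209 in MHs and 2880 in Sox9+EpCAM- cells, 9.2-fold higher, a difference of 3.20. Acot1, the cytosolic enzyme, had 638 and 6690, 7-fold higher, a difference of 2.81. Acot4, a peroxisomal enzyme, had 4940 and 2140, 3.46-fold lower, the lowest difference of the set with -1.79. The thioesterases thus hold both ends of the range.

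These genes are neighbours. On mm9 their probes lie on chromosome 12 at 85334071 to 85334130 for Acot2, 85358561 to 85358620 for Acot1 and 85384821 to 85384880 for Acot4, followed by Acot3, Acot5 and Acot6. Acot3 had -0.72 with its brighter probe and -2.26 with the other, and Acot5 had -0.35. Acot6 was not well above background in MHs and was higher in Sox9+EpCAM- cells, by at least 2.47-fold, with 1 probe, while its other probe was above background on neither array. Of the probes with a value, those of Acot2 and Acot1 were at least 4-fold higher and the dimmer one of Acot3 was at least 4-fold lower. The genes are close copies of each other, and although no probe of the 3 members shares 20 bases with a probe of another name, shorter or mismatched likeness was not examined.

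**Figure D2:**
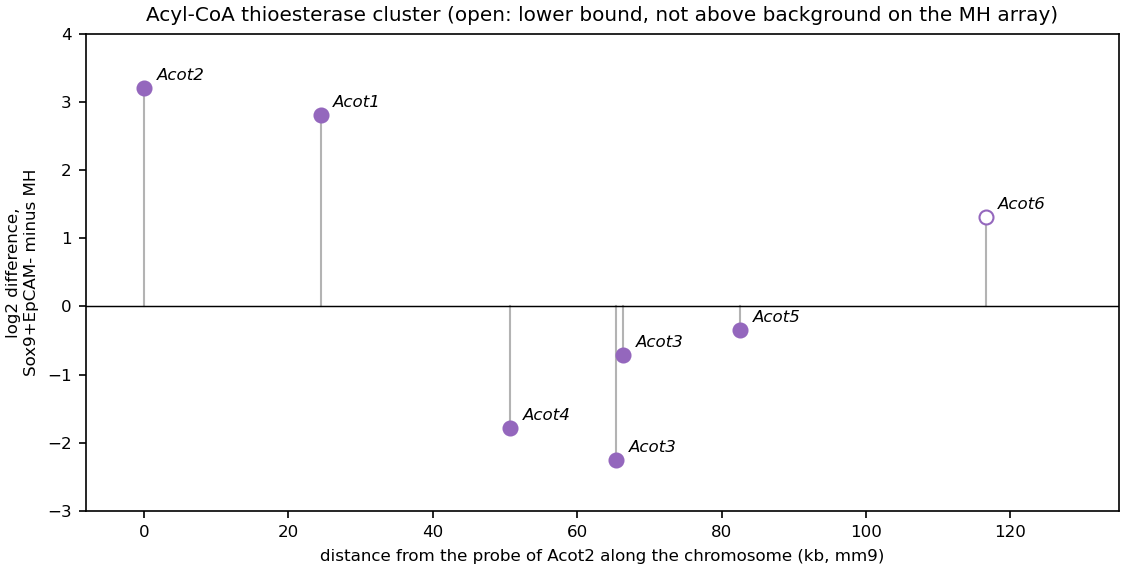
The log2 difference of each probe of the thioesterase cluster with a value is plotted against its distance in kb from the probe of Acot2. Acot2 and Acot1, within 24.5 kb, are above 2.8, Acot4 at 50.8 kb is at -1.79, and the open point is the lower bound of 1.31 for Acot6.

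Across the 9 members with several probes, 3 (Cpt1b, Acox3 and Decr1) ranged over more than 1 on the log2 scale between probes, which is 33.3% against 39.8% of the 4001 genes with several probes. In 3 members, Cpt1b, Decr1 and Bdh1, the probes differed in sign. Acot1, Acot2, Etfdh and Eci1 rest on 1 probe each, so their differences have no second probe to be compared with.

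The other genes of the pathway, 62 of 64 listed being on the array and 60 having a difference, had a median of -0.54. At least 2-fold lower were 18 of them (30%, with 17.9% of all genes) and 6 (10%, with 15.2% of all genes) were at least 2-fold higher. At least 4-fold lower were 11 (18.3%, with 5.96% of all genes). They include Slc27a5, a liver transporter that also activates bile acids (15400 and 1480, a difference of -3.96). Ivd (-3.35), Acadsb (-2.23) and Acad12 (-2.05) encode dehydrogenases, those of Ivd and Acadsb for branched acyl groups from amino acids. Acsm1 (-2.19) and Acsm5 (-2.15) encode synthetases for medium chains. Hacl1 (-2.53) and Acox2 (-2.05) encode peroxisomal enzymes for branched chains and bile acid precursors, and Acot13 (-2.32) and Acot7 (-2.15) thioesterases outside the cluster. At least 4-fold higher were 3 (5%, with 5.98% of all genes). Slc27a1, a fatty acid transporter known from muscle and fat, had 81.1 and 2060, a difference of 4.08. Slc22a5, which imports carnitine, had 185 and 1210, a difference of 2.13, and Pex14, a docking protein of peroxisomal import, had 2.51.

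Fatty acid synthesis lay lower than oxidation. Its 15 genes were all below 0, with a median of -1.28, and 8 (53.3%, with 17.9% of all genes) were at least 2-fold lower. Scd1, which makes monounsaturated fatty acids, had 54200 and 370, a difference of -7.78. Thrsp (-3.15), Fasn (-2.74) and Acly (-2.12) were also at least 4-fold lower, which makes 4 of 15 (26.7%, with 5.96% of all genes). The 16 TCA cycle genes had a median of -0.85, with 4 (25%, with 17.9% of all genes) at least 2-fold lower and 0 at least 4-fold. The respiratory chain list, 81 genes with a difference that were taken by the start of their names and include assembly factors, had a median of -0.86, and 35 (43.2%, with 17.9% of all genes) were at least 2-fold lower. Of these, 12 (14.8%, with 5.96% of all genes) were at least 4-fold lower, from -4.25 for Cox7a1 to -2.01 for Ndufaf4 and for Cox4nb, which the name rule takes in although its protein is not of the respiratory chain. The others are Atp5k, Ndufa2, Ndufab1, Ndufaf3, Ndufb7, Ndufb8, Ndufs3, Ndufv1 and Uqcrfs1. Cox6b2 (4.22) and Cox6a2 (2.33) were at least 4-fold higher, which is 2.47% of the list, with 5.98% of all genes. The median of the 39 oxidation genes is nearer to that of all genes than are the medians of the other pathway genes, synthesis, the TCA cycle and the respiratory chain. Whether the lists differ was not tested.

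**Figure D3:**
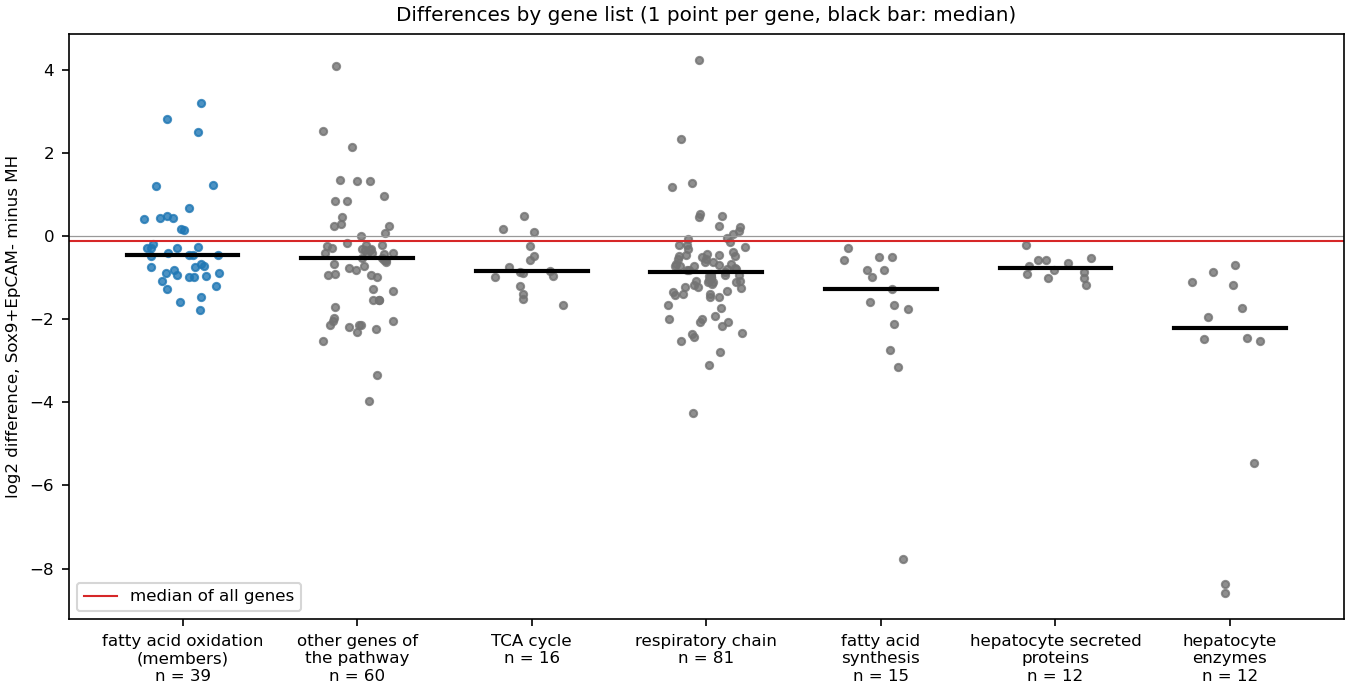
Each point is the log2 difference of 1 gene, grouped by list with its number of genes below, the black bar is the median of the list and the red line the median of all genes. The fatty acid oxidation genes have a median of -0.46 and reach from -1.79 to 3.20, while the points of fatty acid synthesis and of both hepatocyte lists all lie below 0.

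The labelled cell type was checked against markers. The 12 secreted proteins of hepatocytes were on both arrays and had a median of -0.77, with summed levels of 1601 and 955 relative to the 75th percentile, and the 12 hepatocyte enzymes had a median of -2.21, with 1042 and 311. Both medians are below that of the oxidation genes with this scaling, and they were not taken under the others. Under quantile normalization the bright member Fabp1 moved from -0.74 to -0.15. Of the other cell types, summed levels on the MH and Sox9+EpCAM- arrays were 5.45 and 51.8 for 12 cholangiocyte markers, 13.1 and 47.1 for 12 fibroblast and stellate markers, 11.3 and 2.72 for 10 endothelial markers and 165 and 91.8 for 11 leukocyte markers. Single genes carry some of these sums, since Spp1 makes up 42.3 of the 51.8 and Itgam 124 of the 165 and 76.3 of the 91.8. Dcn makes up 10.9 of the 13.1, and without it the fibroblast and stellate sums are 2.22 and 33.6. Without Spp1 the cholangiocyte sums are 5.1 and 9.43, and without Itgam the leukocyte sums are 40.4 and 15.5. The median differences were 0.19 for the cholangiocyte list, with 7 of 12 above 0, 1.11 for the fibroblast and stellate list, with 10 of 11 above 0, -3.02 for the endothelial list and -0.70 for the leukocyte list, with 8 of 9 below 0. Epcam had a difference of 3.73 in cells sorted as EpCAM-, Spp1 of 6.93, Col3a1 of 6.41 and Cd68, the 1 leukocyte marker above 0, of 3.85. Sox9, whose reporter the sort used, had 8.87 in MHs, not above background, and 60.7 in Sox9+EpCAM- cells, a difference of at least 0.53. Krt7 had -0.23, Aqp1 -1.37, Prom1 -1.20 and Clec4f, of Kupffer cells, -6.43. Pdgfrb, Lyve1 and S100a8 were above background on neither array. The part of such cells in the differences of the oxidation genes was not tested. In such samples, fewer hepatocytes and less of an RNA per hepatocyte cannot be told apart.

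The direction of small differences depended on the scaling. Under 11 other choices of background, scaling, spots and probes, 29 of the 39 genes kept their sign, 20 below 0 and 9 above, and 10 changed it. For the 30 members with 1 probe, the choices between probes could not change the sign. Of the 10, 7 changed under quantile normalization. Cpt1a, Crot and Slc25a20, which is also among those 7, changed under another scaling to 1 value per array, which adds the same amount to every gene, so a change there says only that the difference was close to 0. Cpt1a, Crot, Slc25a20, Acadm, Acaa2, Ehhadh, Hsd17b4, Acaa1b and Bdh1 are among the 10 and all lay within 1.5-fold. Cpt1b is the exception, through its probes. Acot2, Acot1 and Etfdh stayed at least 4-fold higher under each of these choices, and no member was at least 4-fold lower under any. Each of these genes has 1 probe, above background on both arrays and sharing no 20 bases. The choices of probe, of bound and of detection therefore could not change their values.

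**Figure D4:**
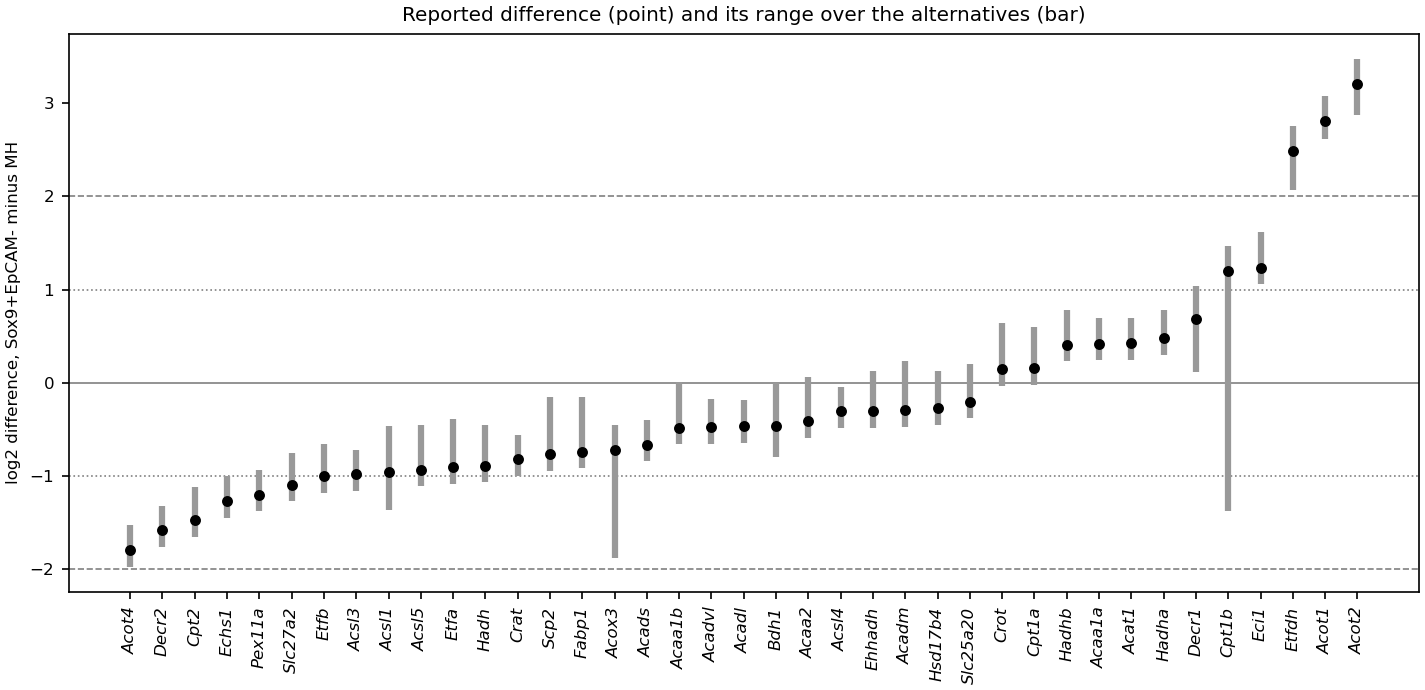
For each gene, in order of its reported log2 difference (point), the bar spans the lowest and highest value over the 11 alternatives, with dotted lines at 2-fold and dashed lines at 4-fold. The bars of Acot2, Acot1 and Etfdh stay above the upper dashed line, and that of Cpt1b crosses from -1.37 to above 1.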

How the data were processed

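RNA of 1 sample per group was hybridised to Agilent arrays with 60-base probes by a service provider. For each array the authors deposited spot intensity from Feature Extraction 10.7.3.1, with the background subtracted and no normalization between arrays, and, separately, ratio values, which are this intensity divided by the median of the array (96.5 and 164). The SD of the log2 factor was 0.0018. Coordinates of the array design are on mm9, and the table of all samples had 0 unused columns.

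Controls and outlier-marked spots were dropped, intensities were divided by the 75th percentile of their array and taken to log2, and the spots of each of 39390 probes were averaged. The probe with the highest mean stood for a gene. Where a probe failed to exceed background clearly on 1 array, the difference is a bound, and its level there was set to its own signal or, if higher, the lowest clear signal of that array (27.8 for MHs and 18.4 for Sox9+EpCAM- cells). The rules of size were 4-fold and 2-fold. Between spots of a probe printed at least 8 times, the median SD was 0.0794 on the log2 scale (262 probes) and 0.0789 (297 probes).

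Named are all members, and those genes of the other lists at least 4-fold different, except where a result is not reported here; markers were named as examples. Members and lists were chosen with earlier results of these data known. All 39 members matched a RefSeq symbol. The alternatives were normexp with an offset of 50 (R 4.3.3, limma 3.58.1), quantile normalization, scaling to Gapdh or to the median of the probes measured in both RNAs, the deposited table, outlier spots kept, the median of all probes, the probe with the largest difference, no probe sharing 20 bases, plain differences in place of bounds, genes measured in both RNAs only, and a 10-fold threshold. A value was called moved beyond 1.5-fold. The rest was done in Python 3.11.15 with pandas 2.3.3, numpy 2.4.6 and matplotlib 3.10.9, and the procedure was tested on simulated data. Cholangiocytes, quantitative PCR and the other assays of the study were not analysed here.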

Additional observations from a re-analysis of the deposited data

How the results depend on the processing

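The median of the members stayed below 0 under every alternative tried, from -0.15 under quantile normalization and -0.19 under scaling to Gapdh to -0.64 in the deposited table. The median of all genes under these was -0.05, 0.14 and -0.31, so the members lay closest to it under quantile normalization. Scaling to Gapdh moved the median of all genes measured on both arrays by 0.27 and left 4 members at least 2-fold lower (10.3%, with 13% of all genes), and the deposited table moved it by -0.18 and gave 12 (30.8%, with 22.7% of all genes), against 7 reported (17.9% of both). The share of 4-fold differences that were higher was 50.1% as reported, 62.1% under scaling to Gapdh and 42% in the deposited table. At a threshold of 10-fold, 0 members were higher. Cpt1b changed sign, to -0.08 with the median of all its probes and -1.37 with the probe of the largest difference. Scp2 moved to -0.15 under quantile normalization and Acox3 to -1.88 with its dim probe. Normexp gave 612 genes at least 4-fold higher and 660 lower, against 1309 and 1304. Hadhb has no value when probes sharing 20 bases are left out. The cause of these moves was not tested beyond the choice of probe or scale that makes them. Leaving out a replicate and a slide term were not run, for want of a second array per group. No paired analysis was possible because there is 1 array for MHs and 1 for Sox9+EpCAM- cells.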
